A study of Homo sapiens with 2 samples.

Results

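Messenger RNA of 45 genes for protein folding in the endoplasmic reticulum (ER) and for the unfolded protein response was compared between treated and untreated CHME3 cells. CHME3 is an immortalised human line, labelled microglia. The members were taken by name from the gene names of the deposited files, and all 45 of 45 were found among 26370 gene names. One library came from untreated cells at passages 4 to 6. The other came from cells of the same passages given muscarinic receptor antagonists at 5 µg/ml, the dose labelled as EC50. The labels name neither the compound nor the length of exposure. With 1 library per condition every difference below is one between 2 libraries, with no replicate check of the treatment. In bulk RNA, fewer cells that express a gene and less of its RNA per cell cannot be told apart.

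Secretory and membrane proteins enter the ER through the SEC61 channel and fold there with the help of chaperones, lectins and enzymes that form disulfide bonds. Proteins that fail to fold are drawn back into the cytosol and destroyed, a route called ER-associated degradation. When unfolded proteins build up, the membrane sensors IRE1 (gene ERN1), PERK (EIF2AK3) and ATF6 start the unfolded protein response, which slows translation and raises the transcription of chaperone and degradation genes. IRE1 does so by cutting a short intron out of XBP1 messenger RNA in the cytosol, which shifts the reading frame and yields an active transcription factor. In microglia, as in other cells that secrete proteins, this response sets the capacity of the secretory pathway.

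The XBP1 intron is shown first because the deposited files carry separate records for the form that keeps it and the form that lacks it. It lies on hg38 at chr22:28796124-28796149 on the minus strand, is 26 bases long, and sits within exon 4 of the 5 exons of the longer record, inside coding sequence. The sequences below are from GENCODE release 29, read 5′ to 3′ with 20 bases on each side, and capitals mark the intron.
XBP1 unspliced: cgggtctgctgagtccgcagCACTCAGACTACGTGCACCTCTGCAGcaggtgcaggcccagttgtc
XBP1 spliced: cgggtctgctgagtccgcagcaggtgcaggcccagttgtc
Because 26 is not a multiple of 3, the records encode different C termini.

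The ER stress element is the promoter sequence through which ATF6 and XBP1 act. It is known from promoters of genes on this list, such as HSPA5, so its share here is a description of genes grouped for this response and not an independent feature. RefSeq windows of 300 bases (GRCh38.p14, 250 before to 50 after a start) were found for 42 of the 45 genes. They were searched on both strands for CCAAT and CCACG parted by 9 free bases. The element was found in 8 of the 42 genes (19%), against 25 of all 27305 genes in the table (0.0916%) and 27 of all 35116 windows (0.0769%). The matches are printed with 5 bases on each side, in the direction of the element, with its fixed letters in capitals.
HSPA5 (chr9:125241386-125241414, minus strand): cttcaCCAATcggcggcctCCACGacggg
HSP90B1 (chr12:103930211-103930239, plus strand): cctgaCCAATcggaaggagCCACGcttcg
HSP90B1 (chr12:103930316-103930344, minus strand): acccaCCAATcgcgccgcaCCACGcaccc
CALR (chr19:12938379-12938407, minus strand): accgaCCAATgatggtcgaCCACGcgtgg
CANX (chr5:179698773-179698801, plus strand): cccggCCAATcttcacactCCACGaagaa
PDIA6 (chr2:10812848-10812876, minus strand): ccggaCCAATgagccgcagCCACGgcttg
ERO1B (chr1:236282178-236282206, plus strand): ggcggCCAATgaggcgggaCCACGcgggc
CRELD2 (chr22:49918549-49918577, minus strand): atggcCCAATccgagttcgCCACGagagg
XBP1 (chr22:28800598-28800626, minus strand): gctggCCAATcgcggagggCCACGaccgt
The second form of the element, ATTGG and CCACG parted by 1 free base, was found in 3 further members (7.14%), against 19 genes of the table (0.0696%).
HERPUD1 (chr16:56932020-56932040, plus strand): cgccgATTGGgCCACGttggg
HYOU1 (chr11:119057269-119057289, plus strand): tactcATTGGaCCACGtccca
HYOU1 (chr11:119057375-119057395, plus strand): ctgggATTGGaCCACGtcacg
SDF2L1 (chr22:21642109-21642129, minus strand): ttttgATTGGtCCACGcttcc
A further motif, TGACGTGG, was found in DNAJC10, HYOU1, SSR3, SSR4 and VCP, 5 of the 42 genes (11.9%), against 253 genes of the table (0.927%). In HYOU1 it overlaps the second copy printed above. A match is a description of the letters, not evidence of binding. The stretch before the HSPA5 start, from 200 to 46 bases upstream (chr9:125241389-125241543, minus strand), is given whole because this is the classical promoter of the response. Bases are counted from the start in the RefSeq window table, which lies inside the deposited HSPA5 record, and the stretch ends just before that record begins. It holds CCAAT 3 times, and capitals mark the 1 full match.
HSPA5 upstream: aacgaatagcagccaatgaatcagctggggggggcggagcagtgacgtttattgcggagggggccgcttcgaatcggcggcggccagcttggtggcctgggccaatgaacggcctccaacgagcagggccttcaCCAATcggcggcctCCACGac

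From the deposited bounds, the untreated library held an estimated 6702761 fragments and the treated one 7295689. The labelled cell type was checked against fixed markers. Of 12 microglia markers, 10 were under 1 FPKM (fragments per kilobase of transcript, scaled to depth) in each library. Among these, 7 had a listed value of 0 in each: AIF1, TMEM119, CX3CR1, ITGAM, PTPRC, C1QA and C1QB. CD68, a lysosomal gene of many cell types, was over 1 FPKM in each library. Of 8 fibroblast or mesenchymal markers, 4 were over 1 FPKM, and their summed level was 3361 FPKM untreated and 3699 treated. FN1 and COL1A1, whose proteins fold in the ER, made up most of that sum, and its part in the results below was not tested. Of the same list, COL3A1, DCN and LUM had a listed value of 0 in each library. COL1A2 was at 0.196 FPKM untreated and 0.157 treated. All 14 markers of astrocytes, neurons, oligodendrocytes and endothelium were under 1 FPKM in both libraries.

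The genes of ER folding and stress lay close to the same level in treated and untreated cells. Summed over the 45 genes, the level was 4003 FPKM untreated and 3968 treated, 0.818% and 0.811% of all FPKM. A floor of 1 FPKM in the mean was passed by 44 genes. Their median log2 ratio, treated to untreated with 1 FPKM added to each, was 0.00 with quartiles of -0.12 and 0.05. Over all 11668 genes past the same floor it was 0.00 with quartiles of -0.10 and 0.11. By FPKM, 23 of the 44 members were on the higher and 21 on the lower side. The extremes were CRELD2, at a log2 ratio of 0.24, and DERL2, at -0.28. This even split depends on the measure. With fragments scaled to depth in place of FPKM, most members lay on the lower side. Their median was then -0.0641, against -0.0155 over all genes.

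None of the 44 was at least 1.2-fold higher, where 8.1% of all genes were, and 1, DERL2, was at least 1.2-fold lower, where 6.79% were. Genes with few fragments scatter more, so the same shares were taken over genes with at least 100 fragments in both libraries together. All 44 members past the floor qualify, and 5.38% of the 9866 such genes were 1.2-fold higher and 4.14% lower. These shares are still not matched for level. The median level of genes with at least 100 fragments was 13.6 FPKM, and that of the members 43.3. No member was 1.5-fold apart, against 2.23% of all genes and 0.395% of those with at least 100 fragments. Counting error alone, as a 95% interval of the FPKM ratio on fragments, lay above 1 in 1 member and below 1 in 4. The shares over all genes were 6.4% above and 6.04% below, and over genes with at least 100 fragments 6.86% and 6.55%. With fragments scaled to depth in place of FPKM, the interval lay above 1 in 0 members and below 1 in 7, against 4.97% and 7.70% of all genes. The 7 were HSPA5, HSP90B1, CANX, MANF, SEL1L, SEC61G and SSR1. For CANX, SEL1L, SEC61G and SSR1, which have several records, these fragments were themselves estimated from FPKM, length and depth. The genes behind that estimate were of at least 1000 bases, and SEC61G, at 466 bases, is shorter. For HSP90B1 the fragments are the 1777 and 1791 implied by its bounds, where length and depth predict 7363 and 7621.

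**Figure D1:**
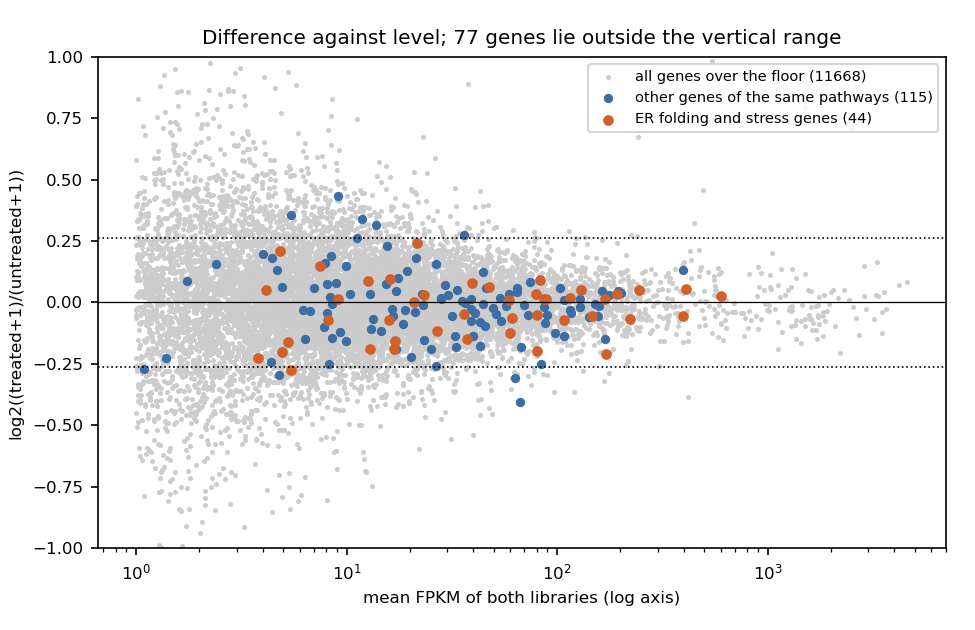
Log2 ratio of treated over untreated, with 1 FPKM added to each (vertical axis), against the mean FPKM of both libraries (horizontal axis, log scale). Orange points are the 44 members, blue points 115 other genes of the same pathways, grey points all 11668 genes over the floor, and dotted lines 1.2-fold. Of the 11668 genes, 77 lie outside the vertical range and are not shown. The members lie between -0.28 and 0.24, with 1 below the lower dotted line.

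Below, a pair of values for a gene gives FPKM in untreated and then in treated cells. A fold is treated over untreated FPKM, and its bracket is the 95% counting interval. The lumenal chaperones and lectins included 3 of the 5 most abundant members, and none differed by 1.2-fold. CALR, the calcium-binding lectin calreticulin (chr19:12938600-12944490 on hg38), had the highest level of the 45 genes, at 599 and 609 FPKM, or 1.02-fold (0.984 to 1.05). HSP90B1, the ER form of Hsp90 known as GRP94 (chr12:103930334-103947930), was at 406 and 390 FPKM, or 0.961-fold (0.8996 to 1.03). Its deposited bounds are as wide as 1777 and 1791 fragments would give, where its length and the depth predict 7363 and 7621. Its interval is thus wider than the length-based number would give. HSPA5, the Hsp70 chaperone BiP that binds unfolded chains and holds the sensors inactive (chr9:125234848-125241387 on hg38), was at 227 and 216 FPKM, or 0.954-fold (0.920 to 0.989). BiP RNA is a standard readout of the response, and the interval here lies just below 1. CANX, the membrane lectin calnexin, was at 149 and 144 FPKM, or 0.961-fold (0.924 to 1.0003). HYOU1, which exchanges nucleotide on BiP, was at 46.2 and 48.4 FPKM. UGGT1, which tags misfolded glycoproteins for another round with the lectins, was at 12.2 and 13.005 FPKM. Thus 3 of these 6 genes were on the higher side and 3 on the lower.

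**Figure D2:**
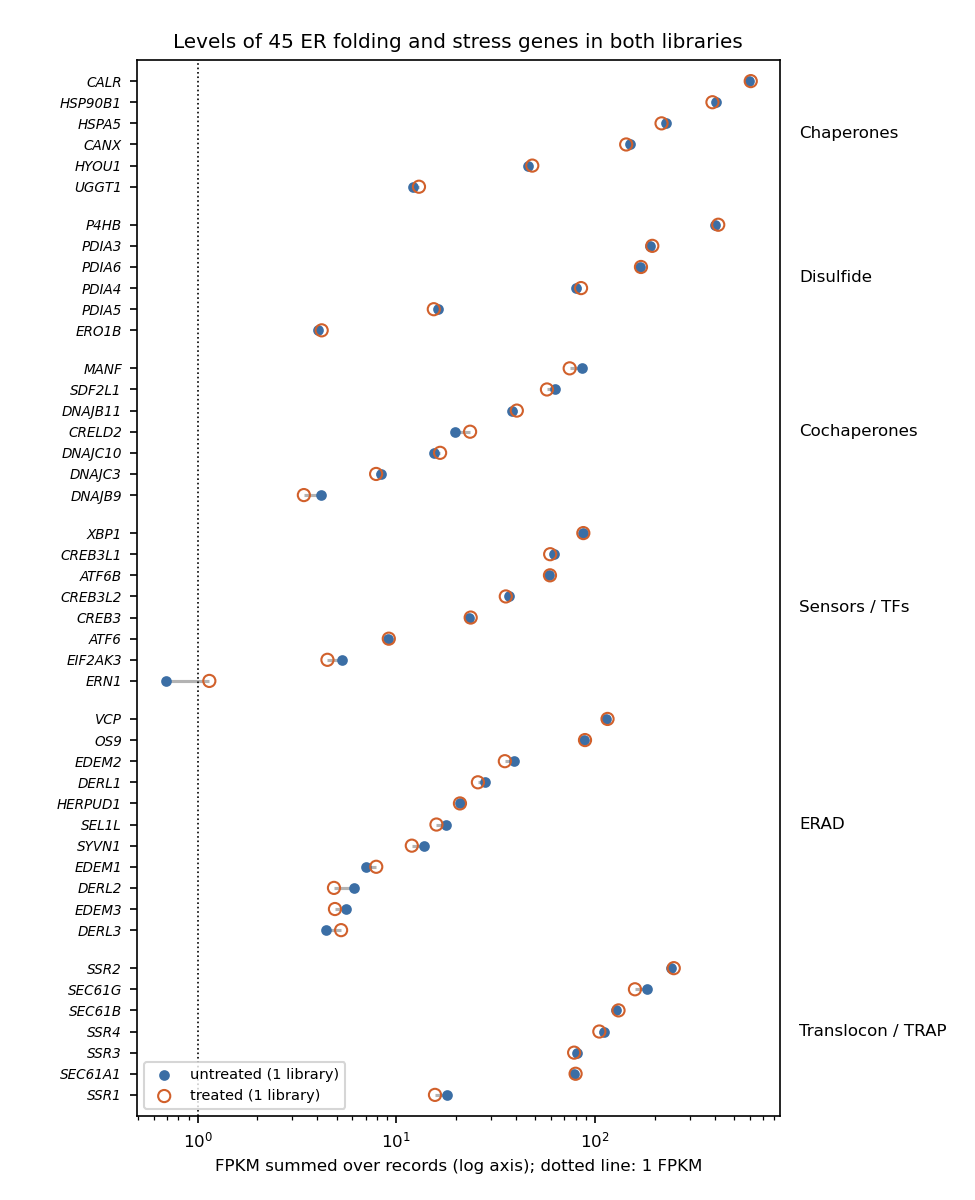
FPKM summed over the records of each gene (horizontal axis, log scale) in the untreated (filled blue) and treated library (open orange), with genes grouped by role and ordered by level. The points of each library overlap or nearly overlap for most genes, over a range from 0.691 FPKM for ERN1 to 609 for CALR.

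Of the 6 genes of disulfide formation, 5 were on the higher side in the treated library by FPKM, all by under 1.2-fold. Of all 11668 genes past the floor, 5917 were on that side. The median log2 ratio of the 6 genes was 0.04. With fragments scaled to depth, PDIA3 and PDIA6 were on the lower side, at -0.0706 and -0.00624. P4HB, PDIA4 and ERO1B stayed on the higher side. P4HB, protein disulfide isomerase itself (chr17:81843158-81860668), was at 402 and 418 FPKM, or 1.04-fold (1.004 to 1.075). It was the only member whose counting interval lay above 1, and with fragments scaled to depth it was at 1.01-fold with an interval from 0.980 to 1.05, which includes 1. PDIA3, which acts on glycoproteins held by calnexin and calreticulin, was at 190 and 194 FPKM, or 1.02-fold (0.9504 to 1.10). Its bounds are as wide as 1430 and 1481 fragments would give, where length and depth predict 3690 and 4067. Its direction depends on the measure, since those bound-based fragments scaled to depth give 0.952-fold (0.885 to 1.02). PDIA6, an isomerase that also binds BiP, was at 169 and 170.5 FPKM, or 1.01-fold (0.955 to 1.07). PDIA4 was at 79.9 and 85.1 FPKM. PDIA5, at 16.3 and 15.4 FPKM, was the 1 gene of this group with the lower FPKM in treated cells. ERO1B, an oxidase that recharges the isomerases, was at 4.03 and 4.21 FPKM.

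The cochaperones were split, with 3 of 7 genes on the higher side. MANF, a secreted protein that binds BiP and is released under ER stress (chr3:51385237-51389397), was at 85.6 and 74.6 FPKM, or 0.872-fold (0.761 to 0.998), an interval that lies just below 1. CRELD2, another secreted stress protein, went the other way, at 19.7 and 23.5 FPKM with a ratio of 1.19 (0.970 to 1.47). These genes, both known as stress-induced, thus lay on opposite sides. SDF2L1, part of a BiP complex, was at 62.7 and 57.3 FPKM. Among the J-domain proteins, which stimulate the ATPase of BiP, DNAJB11 was at 38.3 and 40.4, DNAJC10 at 15.5 and 16.6, DNAJC3 at 8.37 and 7.91, and DNAJB9 at 4.18 and 3.42. DNAJB9, a target of XBP1, rests on 63 and 56 fragments, and its interval of 0.561 to 1.19 includes 1.

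The sensors and the transcription factors of the response were level between the libraries apart from the 2 least abundant, EIF2AK3 and ERN1, whose intervals include 1. XBP1 (chr22:28794560-28800572) was at 86.6 and 87.4 FPKM over both records, or 1.01-fold (0.924 to 1.10). ATF6B was at 59.0 and 59.4 FPKM, or 1.01-fold (0.921 to 1.10), and ATF6 at 9.05 and 9.17, or 1.01-fold (0.888 to 1.15). Both are membrane proteins cut in the Golgi to release a transcription factor. EIF2AK3, the kinase PERK (chr2:88556741-88627576), was at 5.32 and 4.501 FPKM, or 0.846-fold (0.665 to 1.08). ERN1, the kinase and endonuclease IRE1 that splices XBP1 (chr17:64043030-64130142), was the lowest member, at 0.691 and 1.14 FPKM from 18 and 32 fragments. Its ratio of 1.66 (0.903 to 3.14) has an interval that includes 1, and with a mean under 1 FPKM it is the member left out of the counts above. The remaining factors are relatives of ATF6, also held in the ER membrane until cut, and all 3 lay within 1.2-fold. CREB3, which overlaps GBA2 and TLN1 on the other strand, was at 23.2 and 23.7 FPKM, or 1.02-fold (0.851 to 1.23). CREB3L1, known for control of collagen secretion, was at 62.3 and 59.5 FPKM, or 0.955-fold (0.877 to 1.04). CREB3L2 was at 36.8 and 35.6 FPKM, or 0.966-fold (0.903 to 1.03).

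While total XBP1 was level, the spliced record was lower in the treated library. The record that lacks the 26-base intron was at 7.84 FPKM, with the authors' bounds at 5.49 and 10.2, in the untreated library and at 3.71 FPKM, bounds 2.09 and 5.33, in the treated library. The record that keeps the intron was at 78.8 FPKM (72.3 to 85.2) and 83.7 FPKM (77.2 to 90.1). The spliced record therefore made up 9.06% of XBP1 in untreated and 4.24% in treated cells, 2.12-fold lower in level. Its bounds in the libraries do not overlap, by a narrow margin, while those of the unspliced record do. The records differ by the intron alone, so only fragments that reach it can tell them apart, and the number of such fragments is not in the files.

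Bounds that lie apart, at any size of difference, were more frequent for records of genes with several records than for genes with 1. In genes with several records, the authors' bounds lay apart on the lower side for 8.69% of 11897 records past the same floor and on the higher side for 8.9%. In genes with 1 record the same shares were 1.52% and 1.74%, or 3.27% in all. Among 4444 records of genes with several records at a mean of 3 to 12 FPKM, a range that holds the spliced form, 197 (4.43%) were at least 2-fold lower with bounds apart. The spliced record of XBP1 is one of this kind, and it has no replicate.

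Of the members, 22 have several records, and 45 of their 79 records passed the floor of 1 FPKM. The bounds lay apart for 12 of these 45, in 9 genes, 5 lower and 7 higher, against 17.6% of such records over all genes. The 23 members with 1 record had none. OS9, a lectin that delivers glycoproteins for degradation, was level as a gene, at 88.3 and 89.1 FPKM, while 3 of its 6 records past the floor were apart. One of them, 45 bases shorter than the most abundant record, was at 0.0191 and 7.34 FPKM, and another, 210 bases shorter, at 15.9 and 3.83. SYVN1, the ubiquitin ligase HRD1, had its records in opposite order in the libraries. They differ by 3 bases in length and were at 9.24 and 4.01 FPKM and at 4.54 and 7.96 FPKM. A UGGT1 record listed as non-coding, 153 bases longer than the main one, was at 0.563 and 2.93 FPKM. An EDEM2 record 111 bases shorter was at 0.739 and 4.38 FPKM. For ATF6B, a record 9 bases shorter was at 13.1 and 7.21 FPKM, and for CANX one 53 bases shorter at 11.7 and 17.4. A HYOU1 record 133 bases longer was at 10.8 and 14.6 FPKM. An SSR4 record 50 bases longer was at 3.43 FPKM in the untreated library and near 0 in the treated one. These records were chosen after their values were seen.

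**Figure D3:**
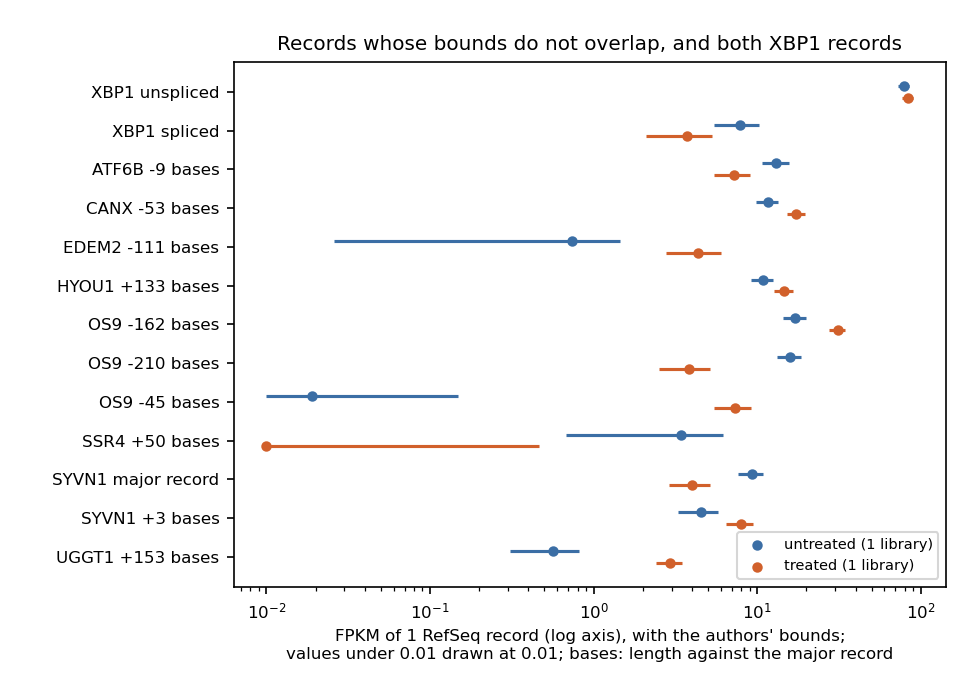
FPKM of single RefSeq records (horizontal axis, log scale) with the authors' lower and upper bounds in the untreated (blue) and treated library (orange). Shown are both XBP1 records and the other member records of at least 1 FPKM whose bounds lie apart, labelled by their length difference from the most abundant record of the gene. The spliced XBP1 record is at 7.84 and 3.71 FPKM, and the OS9 record 45 bases shorter than the main one at 0.0191 and 7.34. Values under 0.01 FPKM are drawn at 0.01.

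Genes of ER-associated degradation had a median log2 ratio of -0.12, with 6 of 11 on the lower side by FPKM. Of all genes, 49.3% were on that side. With fragments scaled to depth, DERL3, HERPUD1, OS9 and VCP were lower too, at log2 ratios of -0.293, -0.0219, -0.00248 and -0.00344. EDEM1 stayed higher, at 0.143. DERL2, a channel protein of the HRD1 complex (chr17:5471251-5486230), was at 6.09 and 4.86 FPKM, a log2 value of -0.28, or 0.797-fold in FPKM (0.633 to 1.003). It was the only member over the floor past 1.2-fold with 1 FPKM added, and its interval includes 1. Without that addition DNAJB9, at 0.820-fold, was past it too. Of its relatives, DERL1 was at 28.0 and 25.8 FPKM and DERL3, which is induced under ER stress, at 4.42 and 5.27. The direction for DERL3 depends on the measure, since its estimated fragments were 61 untreated and 53 treated, and it overlaps SMARCB1 and the pseudogene GSTTP2. SEL1L, the scaffold of the HRD1 complex (chr14:81471547-81533861), was at 17.9 and 15.9 FPKM, or 0.892-fold (0.813 to 0.979), with an interval below 1. SYVN1, the ligase of that complex, was at 13.8 and 11.97 FPKM, or 0.869-fold (0.728 to 1.04). Of the mannosidase-like proteins that mark glycoproteins for disposal, EDEM1 was at 7.04 and 7.92, EDEM2 at 39.1 and 35.2, and EDEM3 at 5.61 and 4.91 FPKM. All 3 lay within 1.2-fold, with intervals that include 1. HERPUD1, a strongly stress-induced organiser of the complex, was at 20.9 FPKM in both libraries (interval of the fold 0.838 to 1.195). VCP, the ATPase that pulls substrates into the cytosol, was at 114 and 116 FPKM.

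The SEC61 channel and the TRAP complex, which assists it with some signal sequences, had a median log2 ratio of -0.05, with 3 of 7 genes on the higher side. The channel subunit SEC61A1 was at 78.0 and 79.9 FPKM and SEC61B at 127 and 131, or 1.04-fold (0.887 to 1.21) for the latter. SEC61G, the small gamma subunit, was at 184 and 159 FPKM, or 0.865-fold (0.743 to 1.01). Of the TRAP subunits, SSR2 was at 241 and 249 FPKM, or 1.04-fold (0.966 to 1.11), SSR3 at 81.5 and 78.6, and SSR4 at 111 and 105. SSR1 (chr6:7281143-7313314) was at 18.0 and 15.7 FPKM, or 0.870-fold (with an interval up to 0.945), the lowest of the subunits and the only one whose interval lies below 1. The subunits of TRAP act in 1 complex, and on this per-length scale SSR2 stood highest and SSR1 lowest in both libraries.

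**Figure D4:**
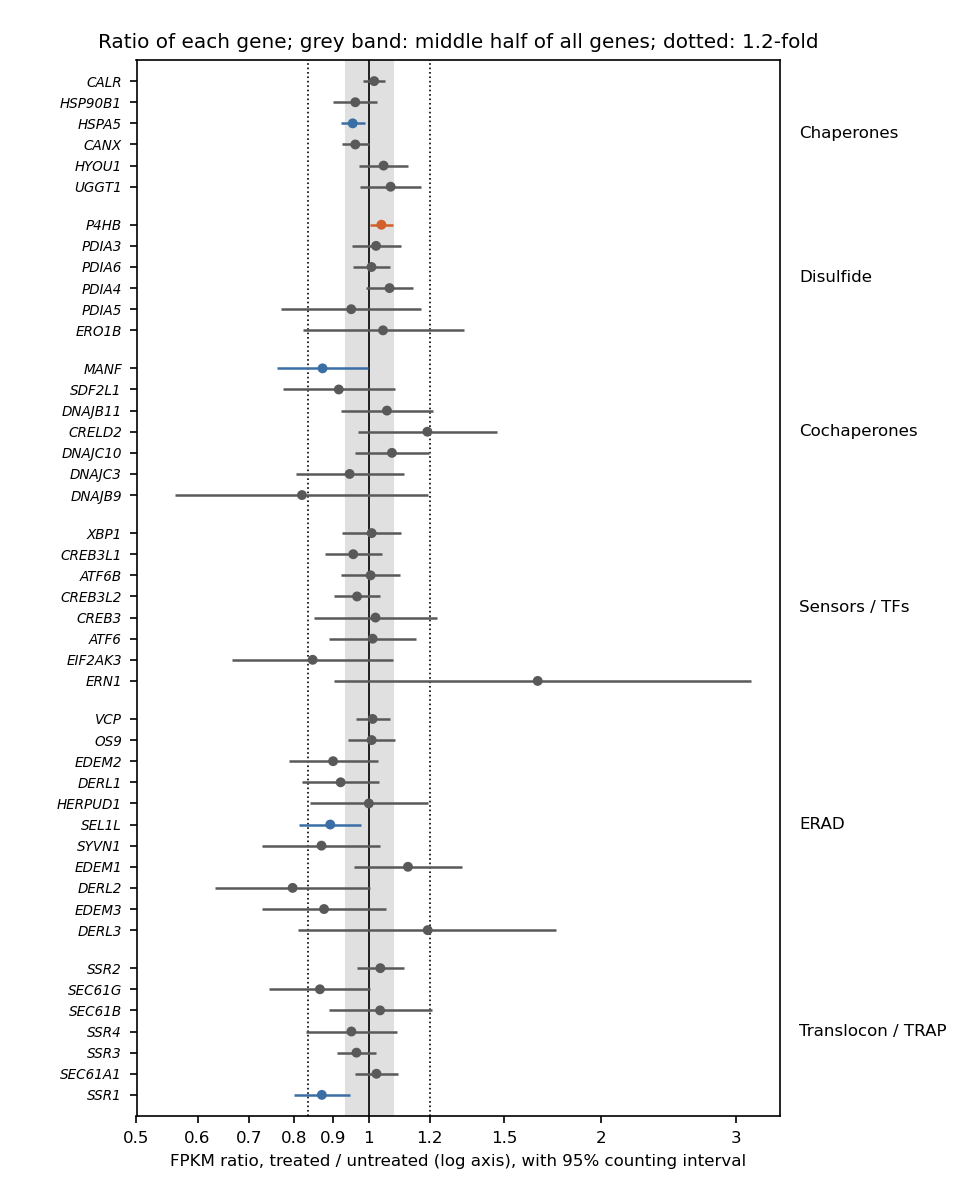
FPKM ratio of treated over untreated (horizontal axis, log scale) for each member, with its 95% counting interval on fragments. Blue marks intervals below 1 (HSPA5, MANF, SEL1L and SSR1), orange the one above 1 (P4HB), the dotted lines 1.2-fold, and the grey band the range between the quartiles of the ratios, with 1 FPKM added, of all 11668 genes over the floor.

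Members with and without an ER stress element both lay near 0. The 11 genes with either form of the element had a median log2 ratio of 0.01, from -0.13 for SDF2L1 to 0.24 for CRELD2, with 7 on the higher side. The 30 other members past the floor with a promoter window had a median of -0.05, from -0.28 to 0.15, with 14 on the higher side. The groups differ in level, with a median of 87.0 FPKM against 36.7.

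Other genes of the same pathways were taken from a list set by role, and it too lay near 0. All 118 genes were found, and 115 passed the floor, with a median log2 ratio of -0.01, 52 on the higher and 63 on the lower side (49.3% of all genes were on the lower side). At least 1.2-fold higher were 6 genes and lower 4, against the background of 8.1% and 6.79% of all genes. The counting interval lay above 1 in 5 genes and below 1 in 13, where the shares over all genes were 6.4% and 6.04%. Targets of PERK and the integrated stress response had a median of 0.08 over 12 genes, with 3 at least 1.2-fold higher and 1 lower. DDIT3, the pro-apoptotic factor CHOP, was at 10.3 and 13.3 FPKM, or 1.29-fold (0.906 to 1.85), and ASNS, asparagine synthetase, at 12.2 and 15.4, or 1.26-fold (1.03 to 1.56). DDIT4, an inhibitor of mTORC1, was at 32.5 and 39.6 FPKM, or 1.22-fold (1.05 to 1.40). ATF4, the factor that drives this branch, was at 198 and 204 FPKM. On the lower side were 4 genes of this branch, of which CHAC1, which degrades glutathione, was past 1.2-fold, at 1.28 and 0.893 FPKM from 12 and 9 fragments. PPP1R15A and PPP1R15B, which direct the phosphatase that reverses the PERK signal, were at 0.883-fold (0.791 to 0.985) and 0.870-fold (0.776 to 0.976), intervals below 1. MBTPS2, a protease that releases ATF6, was at 4.66 and 6.23 FPKM, or 1.34-fold (1.07 to 1.68). In the signal peptidase complex, SPCS1 was at 75.8 and 57.0 FPKM, or 0.752-fold (0.646 to 0.876), and SEC11C at 7.62 and 10.6, or 1.40-fold (0.880 to 2.24). FKBP2, a proline isomerase, was at 69.9 and 56.3 FPKM, or 0.805-fold (0.667 to 0.970), and DNAJC1, a J-domain protein, at 10.1 and 12.3, or 1.22-fold (0.966 to 1.55). UBXN8, which tethers VCP to the ER membrane, was the other gene 1.2-fold lower, at 5.34 and 4.17 FPKM. Of the 14 genes for transport from the ER, 12 were on the lower side, with a median of -0.04 and 0 past 1.2-fold, where 49.3% of all genes were on the lower side. The interval lay above 1 in SEC23B and below 1 in SEC24A, KDELR1 and KDELR3, coat proteins and receptors of this traffic.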

How the data were processed

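Total RNA of 2 CHME3 libraries was sequenced on an Illumina instrument after TruSeq preparation, per the labels. TopHat and Cuffdiff on hg38 were used, per the submitters' processing notes, and versions are not given in the sources used here. The deposited files list 56891 RefSeq records with FPKM (fragments per kilobase, scaled to depth) and bounds, per the file attributes. A deposited score per record was not used. FPKM was summed over the records of a gene. The measure was log2 of (treated + 1) over (untreated + 1), for genes whose mean reached 1 FPKM. Groups came from the treatment label.

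For genes with 1 record, fragments came from the distance of the deposited upper bound to FPKM, taken as 2 standard deviations of a Poisson count. Other genes used FPKM, length and depth, from a line through values whole within 0.01, of at least 10 fragments and 1000 bases (710 and 728 genes). Intervals are 95% exact conditional binomial, computed with scipy 1.17.1. They cover counting error only and compare these libraries, not the conditions. Recovered values that are not whole stand for the width of the bounds. The ratio and interval functions were run on simulated Poisson counts, which does not test how fragments were recovered or estimated. The labels do not say that strand was kept, so 12 members that overlap another gene (among them SYVN1, CREB3, PDIA3 and DERL3) may share its reads. ATF6B and DERL3 also have 6 and 3 placements on alternate scaffolds, all at 0.

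Members, lists and thresholds were chosen with earlier results of these data known. Named are all members, and, of the wider list, genes at least 1.2-fold apart with a mean of at least 5 FPKM (at most 12). ATF4, CHAC1, PPP1R15A, PPP1R15B, UBXN8, the transport genes and member records were named after their values were seen. Protein sequences were not used here. One marker gene is not reported here.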

Additional observations from a re-analysis of the deposited data

How the results depend on the processing

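The median log2 ratio of the members stayed between -0.0641, with fragments scaled to depth, and 0.0171, scaled to the upper quartile, over 9 alternatives. The first and the most abundant transcript (-0.0536) put it on the lower side. In these settings the median over all genes was -0.0155 and 0.000839. The median of the wider list ran from -0.0298 to 0.00233. Members at least 1.2-fold higher numbered 1 with the most abundant transcript (DERL3), against 12.3% of all genes. With no floor they numbered 1 (ERN1), against 8.43%, and elsewhere 0. Members at least 1.2-fold lower numbered 3 with fragments scaled to depth (DERL2, DERL3 and SEC61G), against 8.60% of all genes. They numbered 2 with the most abundant transcript (EDEM2 and SYVN1), against 11.1%. With a pseudocount of 0.1 FPKM they numbered 2 (DERL2 and DNAJB9), against 9.08%, and with one of 5 FPKM 0, against 1.95%. Among the 22 members with 1 record past the floor there were 0, against 7.57% of all such genes. That alternative was added after seeing the data. The interval of P4HB, above 1 by FPKM, includes 1 with fragments scaled to depth. Those of HSP90B1, CANX and SEC61G then lie below 1. In this setting the fragments of HSP90B1 come from its bounds. Those of CANX, SEC61G, DERL2 and DERL3 are estimates from FPKM, length and depth, and SEC61G is shorter than the 1000 bases set for that estimate. DERL2 is thus 1.2-fold lower only in part of the settings. Of 393 single values, 387 stayed within their counting interval. The other 6 (ATF6B, CANX, HYOU1, OS9, SYVN1 and UGGT1) moved with the most abundant transcript, which takes 1 of several records. Many of the 387 could not move. Changing the floor or asking for at least 100 fragments only chooses genes and leaves each single value as it is. For members with 1 record, the most abundant transcript also changes nothing. The count of 387 is thus not a measure of stability. The treated spliced share of XBP1 was 0.468 times the untreated by FPKM and 0.434 times by fragments equivalent to the bounds, an added alternative. No paired analysis was possible because each group has 1 library, and none can be left out. Depth limits ERN1, DERL3 and DNAJB9 most.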
